A study of Mus musculus with 16 samples.

Results

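The genes described here make sterols and fatty acids or control that synthesis. The list holds 31 mouse genes: 6 enzymes of the mevalonate pathway, 11 enzymes that make squalene and turn it into cholesterol, 5 genes of the sterol-sensing system, a sterol carrier and a thiolase, and 7 enzymes of fatty acid and glycerolipid synthesis. A gene was measured through its brightest probe set, the group of array probes that reads one transcript, among those annotated with its symbol alone. Probe sets were found for 30 of the 31 genes in the table that holds P9 and P14, among 19938 genes in all, and for 28 genes in the P21 table, among 22180. *Acat2*, a cytosolic thiolase, had no probe set of its own in either table, and *Idi1* and *Scd2* had none at P21.

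Each mouse gave cortical RNA to a single Affymetrix gene array. The loss-of-function mutants were *Map2k1* loxp/loxp;*Map2k2*-/-;*Neurod6-Cre* mice (*Map2k1/2;Neurod6-Cre*), which lack the ERK-activating kinase MAP2K2 in every cell and lose exon 3 of *Map2k1* where Cre is made, that is in cortical excitatory neurons. They were compared with littermate controls at P9 (mutant mice 1 and 4, control mice 2 and 3) and at P14 (mutant mice 1, 9 and 11, control mice 2, 10 and 12). The gain-of-function mutants were *ca-Map2k1;Neurod6-Cre* mice, in which the same Cre switches on a constitutively active *Map2k1* in the same neurons, and were compared with controls at P21 (mutant mice 1, 3 and 6, control mice 2, 4 and 5). Mice are numbered apart at each age. Controls were Cre-expressing or Cre-negative littermates and all mice were of mixed genetic background, and the methods give 2 litters for the P9 mice and 3 for the P14 mice, but no source used here gives the genotype of each control or says which mice shared a litter. The question each comparison asks is how the level of these transcripts in cortex differs when ERK/MAPK signaling in excitatory neurons is lost or raised.

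Mammalian cells build cholesterol from acetyl-CoA, through mevalonate, isoprenoid units, squalene and lanosterol. When sterols in the endoplasmic reticulum run low, SCAP carries the SREBP transcription factors to the Golgi, where they are cut, and the released fragments switch on the enzymes of both sterol and fatty acid synthesis, whereas INSIG proteins hold SCAP back when sterols are plentiful. The brain makes nearly all of its own cholesterol. Neurons and astrocytes make it during growth, and oligodendrocytes make large amounts for myelin. In tissue RNA, fewer cells of a type and less RNA per cell cannot be told apart.

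Promoter sequence was read for the genes whose promoter was in the RefSeq table (build GRCm38.p6), 25 of the 31, over 250 bases before and 50 after the start site. *Fdps*, *Fdft1*, *Sqle*, *Stard4*, *Scd1* and *Scd2* were not in it. On either strand, 20 of the 25 promoters held CCAAT, the core bound by NF-Y, a common partner of SREBP, against 41.1% of all 27025 genes in the table. The E-box CACGTG, which SREBP1 can also bind, was in 5 of 25 (*Hsd17b7*, *Sc5d*, *Dhcr7*, *Scap* and *Insig1*), against 8.09% of all genes, and the GC box GGGCGG was in 20 of 25, against 38.2%. The strict sterol regulatory element TCACNCCAC was found in *Hmgcs1* alone, 1 of 25, against 1.44% of all genes. Among the 15614 genes of the table that the arrays measured, the shares were 41.7% for CCAAT, 9.5% for CACGTG, 52.9% for GGGCGG and 1.4% for TCACNCCAC. These are matches of letters, not sites of binding, and in the sequences shown no matches overlap. The sequences below are the 180 bases before the start site, from upstream to the start, for *Hmgcs1*, the classic SREBP target, and for 5 of the 7 genes that were lower at P14 in a blocked fit described later. Capitals mark CCAAT on either strand in all of them, CACGTG in *Hsd17b7* and *Sc5d*, and the sterol regulatory element in *Hmgcs1*.
*Hmgcs1* (chr13:119690171-119690350, plus strand): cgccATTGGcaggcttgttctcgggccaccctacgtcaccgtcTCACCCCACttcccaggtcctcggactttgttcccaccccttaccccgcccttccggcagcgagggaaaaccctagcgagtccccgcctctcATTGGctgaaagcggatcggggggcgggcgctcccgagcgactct
*Idi1* (chr13:8885426-8885605, plus strand): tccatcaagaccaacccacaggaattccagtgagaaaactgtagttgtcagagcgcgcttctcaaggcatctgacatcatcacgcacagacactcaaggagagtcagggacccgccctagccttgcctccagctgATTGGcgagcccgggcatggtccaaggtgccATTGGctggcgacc
*Msmo1* (chr8:64733579-64733758, minus strand): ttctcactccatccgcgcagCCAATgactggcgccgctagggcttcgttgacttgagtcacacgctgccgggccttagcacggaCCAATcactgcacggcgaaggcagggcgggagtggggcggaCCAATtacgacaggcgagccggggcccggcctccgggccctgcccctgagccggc
*Hsd17b7* (chr1:169969206-169969385, minus strand): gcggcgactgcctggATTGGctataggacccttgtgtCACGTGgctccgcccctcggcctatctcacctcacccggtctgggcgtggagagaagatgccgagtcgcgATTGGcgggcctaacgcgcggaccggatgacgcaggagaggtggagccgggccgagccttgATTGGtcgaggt
*Sc5d* (chr9:42264301-42264480, minus strand): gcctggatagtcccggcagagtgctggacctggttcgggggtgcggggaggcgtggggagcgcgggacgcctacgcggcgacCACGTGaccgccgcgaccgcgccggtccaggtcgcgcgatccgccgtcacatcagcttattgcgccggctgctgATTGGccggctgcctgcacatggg
*Srebf2* (chr15:82147089-82147268, plus strand): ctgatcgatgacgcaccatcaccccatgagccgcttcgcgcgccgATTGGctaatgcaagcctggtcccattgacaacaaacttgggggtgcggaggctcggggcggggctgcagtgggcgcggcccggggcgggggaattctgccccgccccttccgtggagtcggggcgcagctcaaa
*Hmgcs1* holds the sterol regulatory element 137 to 129 bases before its start and CCAAT further up and further down. *Msmo1* and *Hsd17b7* each hold CCAAT at 3 places in this stretch, *Idi1* at 2, and *Sc5d* and *Srebf2* at 1. The other two of the 7 are *Sqle*, which had no promoter in the table, and *Elovl6*, which had none of these 3 motifs in the 180 bases before its start.

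The arrays give log2 values, so that 1 unit stands for a doubling, and all differences are mutant minus control. The ages were normalized apart, with array medians of 6.13 to 6.18 at P9, 7.91 to 8.08 at P14 and 6.23 to 6.31 at P21, so levels are not compared across ages. Markers of excitatory neurons averaged 9.88 to 9.95 in mutants and 9.95 to 9.99 in controls at P9, 10.74 to 10.81 in mutants and 10.83 to 10.99 in controls at P14, and 9.87 to 9.90 in mutants and 9.90 to 9.97 in controls at P21. The lowest of these markers at P9 and P14 was *Slc17a6*, with differences of -0.945 and -0.794. The median difference of the 7 markers was 0.07 and 0.03 at those ages. The probes of *Map2k1* read the whole transcript, so its level does not check the deletion of 1 exon. Its log2 value was 10.16 and 9.95 in P9 mutants, against 10.04 and 10.04 in controls, and 10.91, 10.79 and 10.89 in P14 mutants, against 10.88, 10.78 and 10.74 in controls. At P21 it was 10.33, 10.38 and 10.29 in mutants, all above the 10.12, 10.08 and 10.12 in controls (difference 0.23, standard error 0.06, adjusted p = 0.310). At P14, the arrays of mice 1 and 2 stood apart, with a 25th percentile of 6.65 and 6.63, whereas it was 6.80 to 6.89 in mice 9 to 12. They are treated below as a set of arrays of their own. No label or method names such sets, which were drawn from the array values alone. *Xist* and the Y-linked genes marked mutants 9 and 11 at P14 as female and every other mouse at the 3 ages as male.

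Most of the genes had a lower mean in mutants at each age, but no single difference passed the test across all genes. The log2 difference was below 0 for 26 of 30 genes at P9, for 24 of 30 at P14 and for 23 of 28 at P21, whereas it was below 0 for 48.2%, 41.7% and 45.7% of all genes. At P14 the count rested on single mice. It was 17 of 30 without control 2 and 17 of 30 without mutant 11, with a median difference of -0.027 and -0.106. With sex as a covariate it was 11 of 30 with a median of 0.056, on the other side of 0. That fit sets mutant 1 alone against controls of both sets of arrays, so the difference between the sets enters it. Mutant 1 minus control 2, of the same set and with no replicate, gave a median of -0.11 with 21 of 30 below 0. The median difference was -0.17, -0.15 and -0.16 at P9, P14 and P21, beside 0.01, 0.02 and 0.01 over all genes. With limma's moderated test and Benjamini-Hochberg adjustment over all genes, 0 of the 30, 30 and 28 measured genes reached an adjusted p under 0.05, where 0.0752%, 1.09% and 0% of all genes did. At an unadjusted p under 0.05, 6, 6 and 10 of them had a lower mean in mutants and 0 a higher one. The background for a lower mean at that threshold was 5.21%, 4.38% and 5.31% of all genes, and for a higher one 5.32%, 4.05% and 5.12%. A change of more than 1.5-fold as well, the threshold of the study's methods, left *Msmo1* and *Sc5d* at P14, with 1.66% of all genes past it, and none of the list at P9 and P21, with 1.11% and 0.604% of all genes past it.

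**Figure D1:**
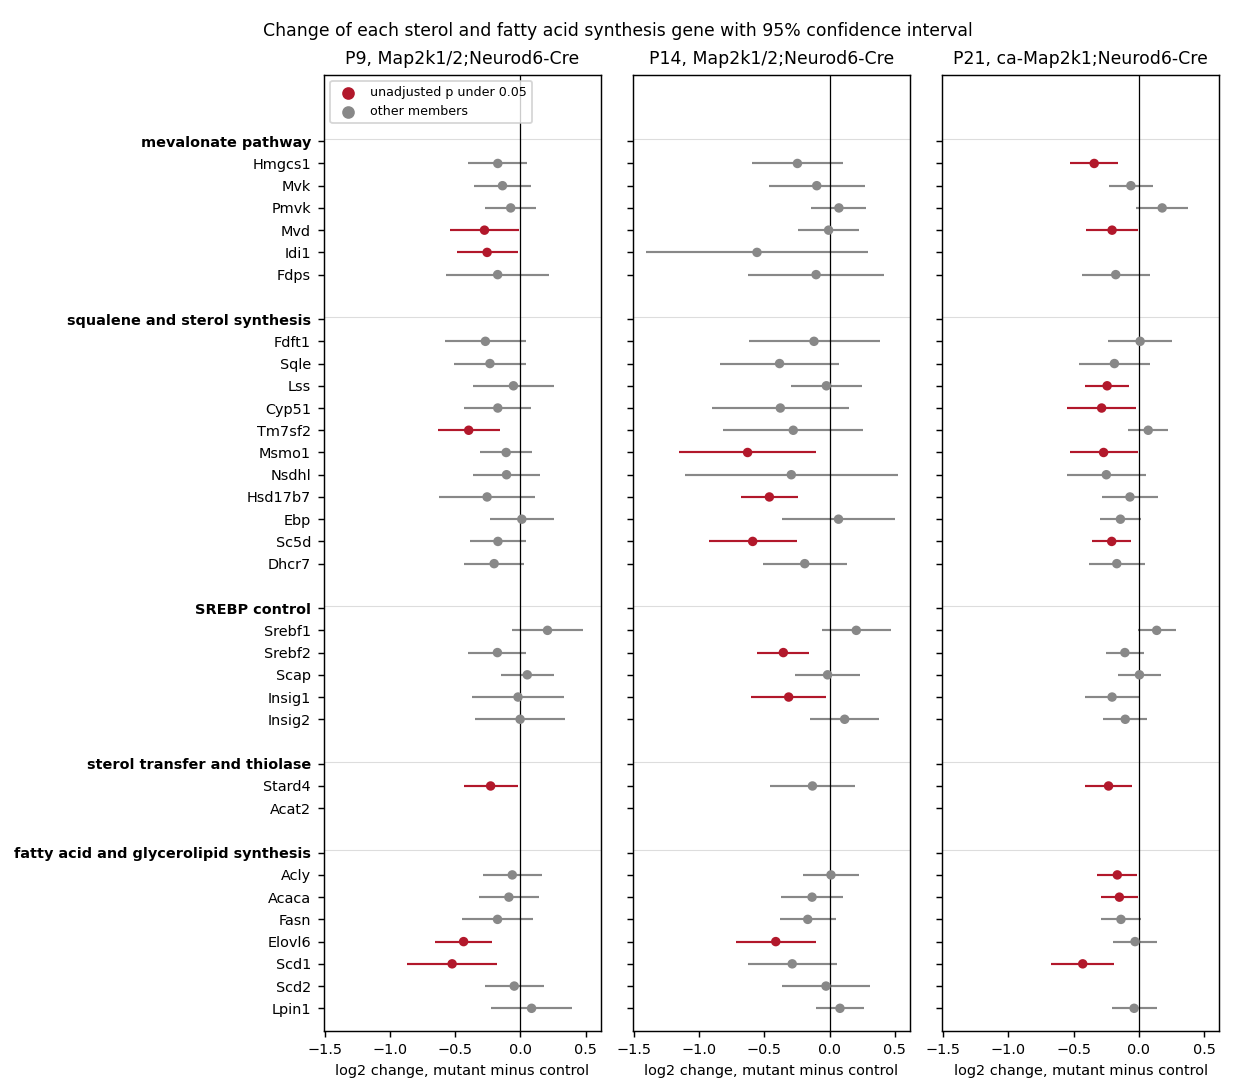
Log2 difference (mutant minus control, x axis) of each gene at P9, P14 and P21, grouped by role, with bars for the 95% confidence interval of limma's moderated fit and red for an unadjusted p under 0.05. All red points lie below 0, and most grey points do too, with *Srebf1* above 0 in each panel.

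A difference below 0 at all 3 ages was found for 19 of the 28 genes measured at each, against 10% of the 18962 genes in both tables. It was above 0 at all 3 for *Srebf1* alone, where it was so for 17.2% of all genes. P21 is the gain-of-function model on another array type, so the 3 ages do not repeat a single comparison. At P9 and P14, the loss-of-function ages, it was below 0 at both for 23 of 30, against 22.9% of all genes. The mice of the 3 ages are different animals and share no controls. Mutants and controls did not overlap, with mutants lower, for 17 of 30 genes at P9, 5 of 30 at P14 and 13 of 28 at P21, while 19.7%, 6.52% and 7.67% of all genes were of that kind. In the other direction the counts were 2, 1 and 1, with a background of 22%, 7.11% and 8.15%. The P14 difference was also tested against the P9 difference, and 0 of 30 genes differed at an adjusted p under 0.05 (limma interaction, lowest adjusted p = 1). Across all 19938 genes 0 were called by it and 4.26% had an unadjusted p under 0.05, as did 0 of the 30. The lowest unadjusted p was that of *Sc5d*, whose log2 difference was lower by 0.42 at P14 than at P9 (P14 minus P9 = -0.42, standard error 0.20, unadjusted p = 0.0646).

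The enzymes of the mevalonate pathway, which leads from acetyl-CoA to the isoprenoid units, had a lower mean in mutants for 6 of 6 genes at P9, 5 of 6 at P14 and 4 of 5 at P21. *Hmgcs1* encodes the cytosolic HMG-CoA synthase that starts the pathway. At P21 its log2 value was 10.39, 10.26 and 10.24 in mutants, against 10.66, 10.54 and 10.73 in controls. The mutants were all lower than the controls, by 0.34 (standard error 0.08, unadjusted p = 0.00288, adjusted p = 0.253 by limma). At P9 it was 11.85 and 11.74 in mutants, against 12.02 and 11.92 in controls (difference -0.17, adjusted p = 0.576). At P14 it was 11.71, 11.16 and 11.20 in mutants, against 11.67, 11.55 and 11.59 in controls (difference -0.25, adjusted p = 0.860). The P14 groups overlapped, with mutant 1 above every control and mutants 9 and 11 below. *Mvd*, which decarboxylates mevalonate diphosphate, was 8.16 and 8.29 in mutants, against 8.61 and 8.39 in controls at P9 (difference -0.27, standard error 0.11, adjusted p = 0.458). At P21 it was 7.71, 7.44 and 7.61 in mutants, against 7.81, 7.84 and 7.72 in controls (difference -0.21, standard error 0.09, adjusted p = 0.467). The groups did not overlap at either age, and at P14 the difference was -0.01 with an interval of -0.24 to 0.23. *Idi1*, the isomerase that makes dimethylallyl diphosphate, was 9.56 and 9.45 in mutants, against 9.83 and 9.69 in controls at P9 (difference -0.25, standard error 0.10, adjusted p = 0.435). At P14 it spread more than any other gene of the list, at 9.70, 8.50 and 8.51 in mutants, against 10.03, 9.18 and 9.17 in controls (difference -0.56, standard error 0.37, adjusted p = 0.903). Mutant 1 lay above both controls 10 and 12 there, and control 2 was the highest mouse. The highest difference of the group was that of *Pmvk*, phosphomevalonate kinase, at every age, with -0.07, 0.07 and 0.18. *Mvk* and *Fdps* had differences of -0.18 to -0.06, with adjusted p from 0.633 to 0.995.

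The next 11 enzymes make squalene from farnesyl diphosphate, close it into lanosterol and trim that to cholesterol. Their mean was lower in mutants for 10 of 11 genes at P9, 10 of 11 at P14 and 9 of 11 at P21, and the median difference was -0.17, -0.29 and -0.19. The 2 lowest P14 differences of the whole list were those of *Msmo1* and *Sc5d*, which act after lanosterol. *Msmo1*, the methylsterol monooxygenase, was 10.74, 9.93 and 9.93 in mutants, against 11.04, 10.76 and 10.68 in controls at P14. Mutants 9 and 11 were far below all controls and mutant 1 lay among them, so that the groups overlapped, with a difference of -0.63 (standard error 0.22, unadjusted p = 0.0251, adjusted p = 0.424 by limma). *Hsd17b7*, a ketosteroid reductase of the same steps, was 8.98, 8.82 and 8.73 in mutants, against 9.33, 9.26 and 9.32 in controls. All mutants were below all controls, which lay close together, and the difference was -0.46 (standard error 0.09, unadjusted p = 0.00133, adjusted p = 0.0831). *Sc5d*, the sterol C5-desaturase, was 9.90, 9.43 and 9.53 in mutants, against 10.40, 10.14 and 10.10 in controls, again with no overlap and a difference of -0.59 (standard error 0.14, unadjusted p = 0.00401, adjusted p = 0.146).

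At P21 *Sc5d* was 9.56, 9.51 and 9.47 in mutants, against 9.72, 9.73 and 9.71 in controls, a difference of -0.21 (standard error 0.06, adjusted p = 0.327) with controls nearly equal. *Msmo1* was 8.50, 8.21 and 8.06 in mutants, against 8.51, 8.56 and 8.52 in controls, where mutant 1 was just below the controls (difference -0.27, standard error 0.11, adjusted p = 0.462). *Lss*, lanosterol synthase, was 7.87, 7.93 and 7.85 in mutants, against 8.19, 8.03 and 8.17 in controls, a difference of -0.24 without overlap (standard error 0.07, adjusted p = 0.326). *Cyp51*, the lanosterol demethylase, was 8.31, 8.08 and 7.85 in mutants, against 8.38, 8.29 and 8.43 in controls, and mutant 1 lay above control 4 (difference -0.29, standard error 0.12, adjusted p = 0.449). These 4 were the enzymes of this group at an unadjusted p under 0.05 at P21, and *Cyp51* was the lowest. *Msmo1* and *Sc5d* differed by -0.11 and -0.17 at P9, both without overlap. At P9 *Tm7sf2* alone, a sterol C14-reductase, was at an unadjusted p under 0.05. It was 9.14 and 9.07 in mutants, against 9.59 and 9.41 in controls, with no overlap (difference -0.40, standard error 0.10, unadjusted p = 0.00685, adjusted p = 0.273). *Tm7sf2* had the highest difference of the group at P21, 0.07 (interval -0.08 to 0.23). *Ebp*, the sterol isomerase, had the highest at P9 and P14, 0.01 and 0.07. *Hsd17b7* differed by -0.26 at P9 and -0.07 at P21, and *Lss* by -0.05 at P9 and -0.03 at P14. *Cyp51* differed by -0.17 at P9 and by -0.38 at P14, where mutants 9 and 11 were lowest and the groups overlapped. The remaining 4 enzymes, *Fdft1*, *Sqle*, *Nsdhl* and *Dhcr7*, had differences of -0.38 to 0.01 over the 3 ages, all with an unadjusted p above 0.05.

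**Figure D2:**
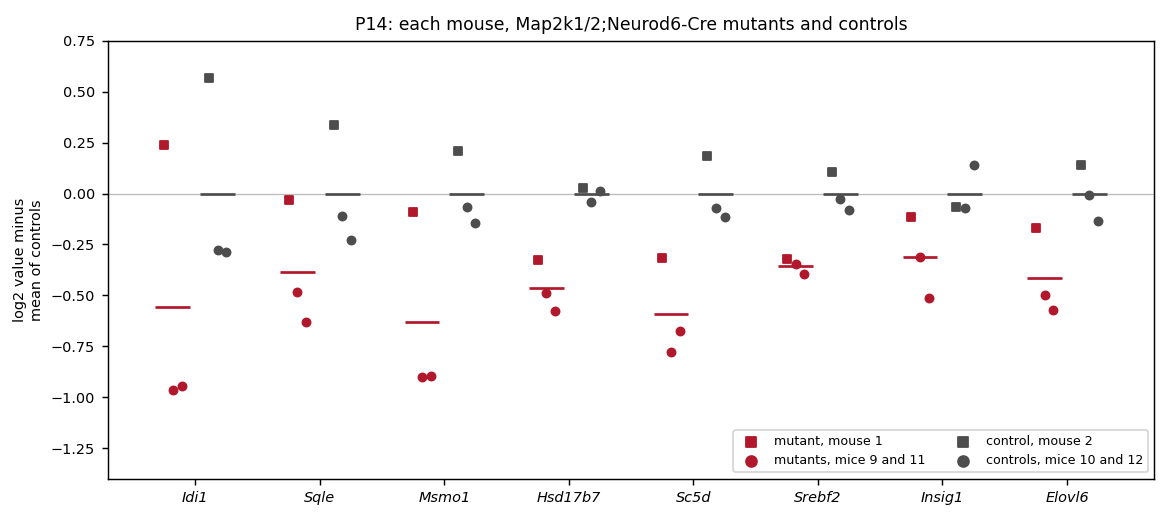
Log2 value of each P14 mouse minus the mean of the controls (y axis) for the 6 genes at an unadjusted p under 0.05 and for *Idi1* and *Sqle*, with mutants left of controls, squares for mice 1 and 2, circles for mice 9 to 12 and lines for group means. The squares lie above the circles of the same group for most genes, and within each set of arrays the mutants lie below the controls.

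Among the genes of sterol sensing, the means of the 2 SREBP genes lay on opposite sides of the controls. *Srebf2*, whose product drives sterol genes most, was 10.48, 10.45 and 10.40 in mutants, against 10.90, 10.77 and 10.72 in controls at P14. The mutants lay close together and below every control, with a difference of -0.35 (standard error 0.09, unadjusted p = 0.00374, adjusted p = 0.139 by limma). Its difference was -0.18 at P9 and -0.11 at P21 (adjusted p = 0.559 and 0.599), without overlap at both ages. *Srebf1*, whose product favours fatty acid genes, had a higher mean in mutants at each age. At P9 it was 7.63 and 7.87 in mutants, against 7.60 and 7.48 in controls (difference 0.21, adjusted p = 0.576). At P14 it was 9.05, 9.43 and 9.15 in mutants, against 8.95, 9.06 and 9.00 in controls (difference 0.20, adjusted p = 0.804). At P21 it was 7.28, 7.24 and 7.22 in mutants, against 7.09, 7.13 and 7.11 in controls (difference 0.14, adjusted p = 0.512). Mutants and controls did not overlap at P9 and P21, and mutant 1 lay below control 10 at P14. *Insig1*, which retains SCAP and is itself a target of SREBP, was 10.18, 9.98 and 9.78 in mutants, against 10.23, 10.23 and 10.44 in controls at P14, with no overlap (difference -0.31, standard error 0.12, unadjusted p = 0.0365, adjusted p = 0.512). At P21 it was the lowest of this group, with a difference of -0.21 (adjusted p = 0.480), and at P9 its interval was -0.37 to 0.33. *Insig2* and *Scap* had differences between -0.11 and 0.12, all with adjusted p of 0.673 or more.

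*Stard4* encodes a carrier that moves cholesterol between membranes and is a known SREBP2 target. At P9 it was 8.61 and 8.63 in mutants, against 8.89 and 8.80 in controls (difference -0.23, standard error 0.08, adjusted p = 0.430). At P21 it was 6.85, 6.65 and 6.80 in mutants, against 6.96, 7.07 and 6.97 in controls (difference -0.23, standard error 0.08, adjusted p = 0.369). Mutants were below controls without overlap at both ages. At P14 the difference was -0.13 and the groups overlapped (adjusted p = 0.988).

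The enzymes of fatty acid and glycerolipid synthesis had a lower mean in mutants for 6 of 7 genes at P9, 5 of 7 at P14 and 6 of 6 at P21. *Scd1*, a desaturase that makes monounsaturated fatty acids, had the lowest difference of the list at P9 and P21. At P9 it was 9.09 and 8.69 in mutants, against 9.39 and 9.44 in controls (difference -0.52, standard error 0.14, unadjusted p = 0.0101, adjusted p = 0.305). At P21 it was 10.40, 10.36 and 10.14 in mutants, against 10.87, 10.58 and 10.75 in controls (difference -0.43, standard error 0.10, unadjusted p = 0.00340, adjusted p = 0.253). The groups did not overlap at either age, and mutant 4 was the lowest mouse at P9. At P14 the difference was -0.29 and mutant 1 overlapped the controls (adjusted p = 0.738). The related *Scd2* differed by -0.05 at P9 and by -0.03 at P14, with intervals of -0.27 to 0.18 and -0.37 to 0.31.

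*Elovl6*, the elongase that makes stearate from palmitate, had a lower mean in both ages of the loss-of-function mice. At P9 it was 9.29 and 9.42 in mutants, against 9.81 and 9.76 in controls (difference -0.43, standard error 0.09, unadjusted p = 0.00282, adjusted p = 0.204). At P14 it was 10.81, 10.49 and 10.41 in mutants, against 11.12, 10.98 and 10.85 in controls (difference -0.41, standard error 0.13, unadjusted p = 0.0145, adjusted p = 0.313). Mutants were below controls without overlap at both. At P21, in the gain-of-function mice, it was 10.27, 10.23 and 10.29 in mutants, against 10.26, 10.23 and 10.39 in controls, a difference of -0.03 with an interval of -0.20 to 0.14, and the highest of its group. That the P21 difference departs from the earlier ones was not tested, since the array type and the model differ. *Acly*, which supplies cytosolic acetyl-CoA, was 9.74, 9.67 and 9.80 in mutants, against 9.91, 9.89 and 9.91 in controls at P21 (difference -0.17, standard error 0.07, adjusted p = 0.441). *Acaca*, acetyl-CoA carboxylase, was 8.29, 8.32 and 8.33 in mutants, against 8.47, 8.46 and 8.45 in controls (difference -0.15, standard error 0.06, adjusted p = 0.461). Both had closely spaced controls and no overlap at P21, and at P9 and P14 their differences were between -0.14 and 0.01. *Fasn*, fatty acid synthase, differed by -0.17, -0.17 and -0.14 at P9, P14 and P21, without overlap at P9 and P21 (adjusted p = 0.643, 0.788 and 0.531). *Lpin1*, a phosphatidate phosphatase, had the highest difference of the group at P9 and P14, 0.09 and 0.08.

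**Figure D3:**
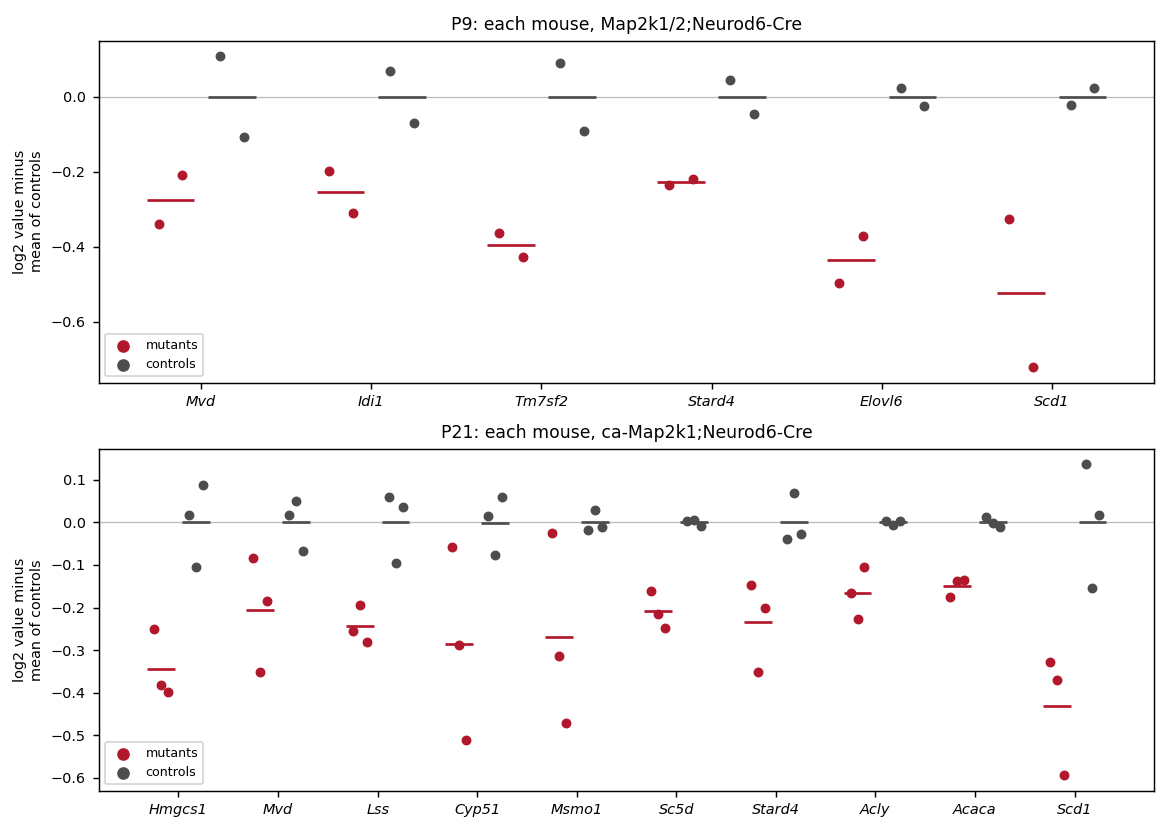
Log2 value of each mouse minus the mean of the controls (y axis) for the genes at an unadjusted p under 0.05 at P9 (6 genes, top) and P21 (10 genes, bottom), with mutants left of controls and lines for group means. Mutants lie below controls for every gene shown except *Cyp51* at P21, where 1 mutant lies among the controls.

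At P14 the 2 sets of arrays differed in these genes by no less than mutants and controls did. Relative to the mean of the controls, the median over the 30 genes was 0.06 in mutant 1, -0.24 in mutant 9 and -0.37 in mutant 11, against 0.17 in control 2, -0.08 in control 10 and -0.08 in control 12. Within each set the mutants were lower. Mutants 9 and 11 minus controls 10 and 12 gave a median of -0.17 with 24 of 30 genes below 0, beside a median of 0.04 over all genes. Mutant 1 minus control 2, a pair of males with no replicate, gave a median of -0.11 with 21 of 30 below 0, beside -0.01. With the sets as a block in limma, 7 of 30 genes fell at an adjusted p under 0.05 and 0 rose, where 6.69% of all genes were called, 3.65% lower and 3.03% higher.

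The 7 genes were *Sc5d* (adjusted p = 0.00178), *Hsd17b7* (0.00597), *Idi1* (0.00620), *Msmo1* (0.00986), *Elovl6* (0.0110), *Srebf2* (0.0121) and *Sqle* (0.0145). *Sqle*, squalene epoxidase, which is named here after its values were seen, was 10.26, 9.80 and 9.66 in mutants, against 10.62, 10.18 and 10.06 in controls at P14. Its difference was -0.37 between mice 1 and 2 and -0.39 in mice 9 to 12, while mutant 1 lay above both controls 10 and 12, so that the groups of all mice overlapped. In mice 9 to 12 alone, 8 genes fell at an adjusted p under 0.05, where 4.94% of all genes were called and 2.78% were called lower, and 5 of the 8 were among the 7 of the block. The others were *Hmgcs1*, *Cyp51* and *Nsdhl*, an X-linked sterol dehydrogenase. Of these 8 genes, 7 were also lower in mutant 1 than in control 2, by 0.03 (*Cyp51*) to 0.50 (*Sc5d*), and *Hmgcs1* was higher by 0.03. In that pair, which has no replicate, 21 of the 30 genes were lower. Both mutants of mice 9 to 12 were female and both controls male, so sex and genotype cannot be told apart in that set. The block fit draws on the same mice, so its calls, wherever they are given, do not separate sex from genotype either. A fit of all 6 mice with sex as a covariate leaves mutant 1 as the only male mutant against the 3 controls. The median difference in it was 0.06, with 11 of 30 genes below 0. Since controls 10 and 12 are of the other set of arrays than mutant 1, this fit does not separate sex from the set of arrays.

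**Figure D4:**
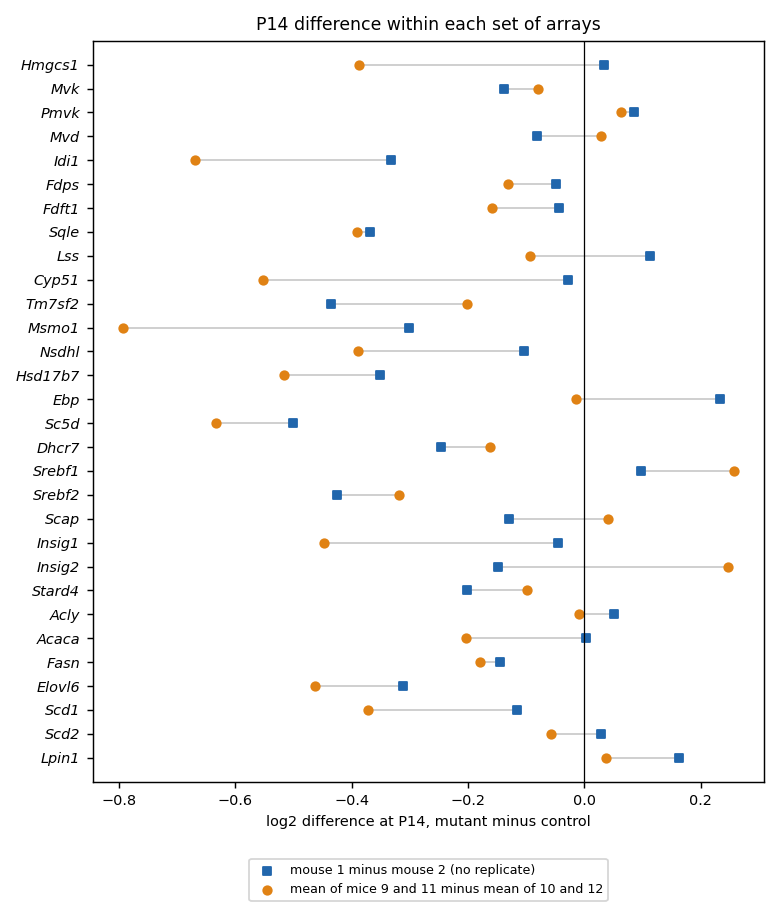
Log2 difference at P14 (mutant minus control, x axis) of each of the 30 genes in the 2 sets of arrays, mutant 1 minus control 2 (squares) and the mean of mutants 9 and 11 minus that of controls 10 and 12 (circles). In both sets *Sc5d*, *Hsd17b7*, *Idi1*, *Sqle*, *Elovl6*, *Srebf2* and *Msmo1* lie at -0.30 or below, whereas *Cyp51*, *Hmgcs1* and *Insig1* lie near 0 in mice 1 and 2. The first 7 are the genes called with the sets as a block. That fit favours genes with like differences in both sets, so their likeness here is no separate support.

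The markers of other cells that also make sterols moved with the groups at some ages. At P21, 45.7% of all genes had a lower mean in mutants and 5.31% were lower at an unadjusted p under 0.05. Of 13 measured oligodendrocyte and myelin markers, 13 had a lower mean, 7 of them at that threshold, with a median difference of -0.40. Their summed signal was 9427, 11827 and 9598 in mutants 1, 3 and 6, against 14255, 14512 and 10960 in controls 2, 4 and 5, so mutant 3 lay above control 5. The median of the sterol and fatty acid genes was -0.05, -0.19 and -0.16 in the same mutants, against -0.005, -0.02 and 0.02 in the controls. Mutant 3 had the highest myelin sum of the mutants and the lowest sterol gene median. By summed signal of the sterol and fatty acid genes the lowest was mutant 6, at 16655, beside 16768 in mutant 3. A relation between the 2 lists was not tested. At P9 the myelin markers had a median difference of 0.00. There 9 of 11 astrocyte markers had a higher mean in mutants, 6 at an unadjusted p under 0.05, where 5.32% of all genes were higher at that threshold. The summed astrocyte signal was 17677 and 17341 in mutants, against 14660 and 15206 in controls. The sterol and fatty acid genes had a median of -0.15 and -0.11 in those mutants, against 0.05 and -0.05 in controls. At P14 the summed myelin signal was 29063, 26183 and 21540 in mutants 1, 9 and 11, against 20120, 23373 and 27035 in controls 2, 10 and 12, with no separation. Of 11 astrocyte markers, 8 had a lower mean in mutants at P14, where 41.7% of all genes did. Relative to the control mean, their median was 0.172, -0.127 and -0.216 in mutants 1, 9 and 11, against 0.117, -0.065 and -0.032 in controls 2, 10 and 12. Endothelial and pericyte markers at P14 had a lower mean in mutants for 7 of 8 genes, 2 at an unadjusted p under 0.05, where 4.38% of all genes were lower. These markers summed to 4592, 3605 and 3269 in mutants, against 5951, 4003 and 3962 in controls. With the sets of arrays as a block, 2 of the 8, *Slco1c1* and *Pecam1*, were called lower (differences -0.46 and -0.28, adjusted p = 0.00603 and 0.0342). So was 1 of 11 astrocyte markers, the water channel *Aqp4* (difference -0.30, adjusted p = 0.0251), and 0 of 13 myelin markers were called. The block called 6.69% of all genes, 3.65% of them all lower and 3.03% higher.

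The markers of the excitatory neurons themselves had differences in both directions. Of 7 measured, 2 had a lower mean in mutants at P9, 3 at P14 and 6 at P21, where 48.2%, 41.7% and 45.7% of all genes did. The median difference of these markers was 0.07, 0.03 and -0.06. Their summed signal was 9833 to 10677 in mutants, against 9949 to 10174 in controls at P9, 22918 to 23492 in mutants, against 22949 to 23908 in controls at P14, and 13989 to 14627 in mutants, against 14281 to 15140 in controls at P21. Those ranges overlapped at each age, whereas the mean log2 value of the 7 markers was below that of every control in every mutant. At P9 and P14 *Slc17a6* had by far the lowest difference of the 7, while their median difference was 0.07 and 0.03. *Slc17a6*, a vesicular glutamate transporter, was 9.07 and 9.16 in mutants, against 10.00 and 10.12 in controls at P9 (difference -0.94, unadjusted p = 5.35e-05, adjusted p = 0.0627). At P14 it was 8.20, 7.90 and 8.18 in mutants, against 9.52, 8.78 and 8.37 in controls (difference -0.79, adjusted p = 0.365, and 0.0366 with the sets of arrays as a block). *Tbr1*, a transcription factor of deep-layer neurons, differed by -0.25 at P9 and -0.34 at P14 (adjusted p = 0.410 and 0.301, and 0.0142 at P14 with the block). Both genes were lower in mutants without overlap at P9 and P14, and for both the groups overlapped at P21. *Emx1*, a transcription factor of the cortical excitatory lineage, was higher without overlap at P9 and P14, by 0.37 and 0.19 (adjusted p = 0.428 and 0.613). The part of any of these cells in the differences of the sterol and fatty acid genes was not tested.

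**Figure D5:**
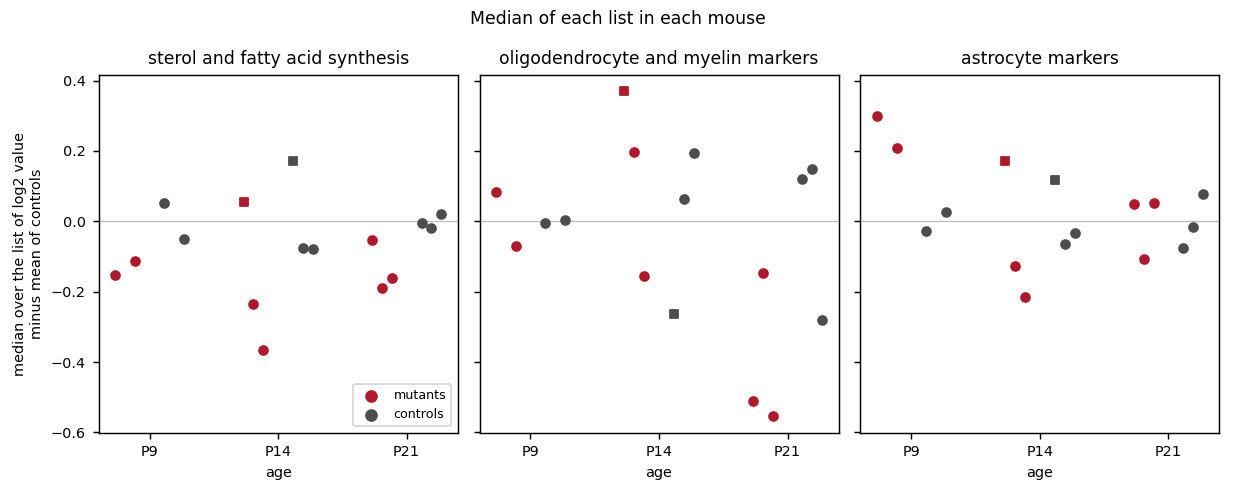
Median over a list of the log2 value minus the mean of the controls (y axis) in each mouse at P9, P14 and P21, with mutants left of controls and squares for P14 mice 1 and 2, for the sterol and fatty acid genes, the oligodendrocyte and myelin markers and the astrocyte markers. For the sterol and fatty acid genes all mutants lie below all controls at P9 and P21 but not at P14, where mutant 1 lies above controls 10 and 12.

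Of 12 measured genes of sterol uptake, transport, efflux and turnover, 4 had a lower mean in mutants at P9, 3 at P14 and 6 at P21, where 48.2%, 41.7% and 45.7% of all genes did. The median difference was 0.04, 0.05 and -0.01, beside 0.01, 0.02 and 0.01 over all genes. *Abca1*, which exports cholesterol to apolipoproteins and is a target of the liver X receptors, was 8.67 and 8.86 in mutants, against 8.26 and 8.22 in controls at P9 (difference 0.53, standard error 0.10, unadjusted p = 0.00171, adjusted p = 0.176). At P14 it was 10.10, 10.26 and 10.18 in mutants, against 9.79, 9.86 and 9.91 in controls (difference 0.33, standard error 0.09, unadjusted p = 0.00574, adjusted p = 0.185, and 0.0154 with the sets of arrays as a block). Mutants were above controls without overlap at both ages, and at P21 the groups overlapped. *Vldlr*, a lipoprotein receptor, was 10.35 and 10.30 in mutants, against 10.06 and 10.08 in controls at P9 (difference 0.25, adjusted p = 0.370). *Cyp46a1*, the neuronal enzyme that turns cholesterol into an exportable form, was 9.75 and 9.56 in mutants, against 9.29 and 9.41 in controls at P9 (difference 0.31, adjusted p = 0.382). Mutants were above controls without overlap for both. *Lrp8*, the other reelin and apolipoprotein E receptor, was 9.90, 9.81 and 9.59 in mutants, against 10.23, 9.98 and 9.94 in controls at P14, with mutants lower and no overlap (difference -0.28, adjusted p = 0.586). At P21 *Npc2*, which carries cholesterol out of lysosomes, was 8.38, 8.34 and 8.37 in mutants, against 8.56, 8.52 and 8.52 in controls, with mutants lower and no overlap (difference -0.17, adjusted p = 0.411).

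A second set of 17 lipid synthesis genes that are no members of the list had 13 measured at P9 and P14 and 14 at P21. A lower mean in mutants was found for 7 of 13 at P9, 6 of 13 at P14 and 11 of 14 at P21, with a median difference of -0.0027, 0.02 and -0.06. At P9 and P14 these counts lay near the 48.2% and 41.7% of all genes. At P21 the share was 78.6%, beside 45.7% of all genes and 82.1% of the measured genes of the list. *Gpam*, which starts glycerolipid synthesis, was 9.52 and 9.76 in mutants, against 9.35 and 9.38 in controls at P9, with mutants higher and no overlap (difference 0.27, adjusted p = 0.445). *Tmem97*, a membrane protein that binds the cholesterol transporter NPC1, was 10.52, 9.72 and 9.89 in mutants, against 10.22, 9.37 and 9.31 in controls at P14, the largest difference of the set at any age (0.41, adjusted p = 0.938). The groups overlapped over all mice, mutants were higher within each set of arrays, and with the sets as a block it was called higher (adjusted p = 0.0145), against the direction of the 7 sterol and fatty acid genes. *Acss2*, which makes acetyl-CoA from acetate, was 9.06, 9.05 and 8.90 in mutants, against 9.36, 9.21 and 9.25 in controls at P21 (difference -0.27, adjusted p = 0.321). *Elovl1*, an elongase of very long chains, was 7.80, 7.96 and 7.92 in mutants, against 8.15, 8.10 and 7.99 in controls (difference -0.19, adjusted p = 0.458). Both were lower in mutants without overlap.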

How the data were processed

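Total cortical RNA of 16 mice was measured, and the labels name sensorimotor cortex and a Qiagen miRNeasy kit where the methods name dorsal cortices, Trizol and RNeasy. The deposited log2 values come from RMA as the authors ran it, with background adjustment, quantile normalization and median polish. Partek 6 is named in the submitters' processing notes, but a build of the genome is not given in the sources used here. Only probe sets with a single gene symbol were used. Each age was fitted alone with limma 3.58.1 in R 4.3.3 (lmFit and eBayes, two-sided, Benjamini-Hochberg over all genes, threshold 0.05), tested on simulated data. All adjusted p-values are from this test unless a block is named, and intervals are 95%. Mice are the replicates, and their small number limits the precision. Every gene of the list at an unadjusted p under 0.05 is given with each mouse's value, and the rest by role. The members, lists and alternatives were chosen with earlier results of these data known. Alternatives were quantile normalization, median centring, a filter at the 30th percentile of brightness, the mean of probe sets, other variance models, sex, array sets and each mouse left out. Promoters were searched with Python 3.11.15. Array values have no read depth.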

Additional observations from a re-analysis of the deposited data

How the results depend on the processing

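With each mouse left out in turn, 0 genes of the list reached an adjusted p under 0.05 at P21, where 0% to 0.00902% of all genes did. At P14 the number was 0 to 3, where 0.135% to 1.52% of all genes were called. The 3 were *Msmo1*, *Hsd17b7* and *Sc5d* without P14 mutant 1. The number at an unadjusted p under 0.05 was 3 to 13 at P14 (13 without mutant 1, 3 without mutant 11), beside 5.87% to 18.1% of all genes. At P21 it was 4 to 12 (4 without mutant 3, 5 without control 4, and 6 without control 2 or control 5). The share of all genes was 7.93% to 11.2% there. At P9 a mouse left out leaves its group with 1 mouse, so only the median difference is given for that age. The median difference was -0.215 to -0.084 at P9, with the value nearest 0 without control 2. It was -0.300 to -0.027 at P14, with the lowest value without mutant 1 and the value nearest 0 without control 2, and -0.163 to -0.123 at P21. At P14, the sets of arrays as a block gave 7 genes called and 16 at an unadjusted p under 0.05, and mice 9 to 12 alone gave 8 and 16. Of all genes, 21.4% and 22% were at an unadjusted p under 0.05 in these 2 fits, and 6.69% and 4.94% were called. Sex as a covariate, which sets mutant 1 alone against controls of both sets of arrays, gave a median of 0.056, on the other side of 0. Quantile normalization and a fit of all 4 groups of the table each called 1 gene at P14, *Hsd17b7* (adjusted p = 0.0441) and *Sc5d* (0.0422). They called 1.58% and 2.41% of all genes. At P9, trended and robust moderation called 1 gene, *Elovl6* (adjusted p = 0.0377), with 1.18% of all genes called. It gave 12 at an unadjusted p under 0.05, beside 11.5% of all genes. No moderation and the fit of all 4 groups left 3 each at P9, beside 8.14% and 6.97% of all genes. The causes were not tested. Every gene of the list given at an unadjusted p under 0.05 kept its direction under all of these settings. The genes were chosen on the same arrays, so their kept direction is no independent support. With sex as a covariate at P14 the difference of *Msmo1* went from -0.629 to -0.09. It went from -0.314 to -0.114 for *Insig1*, from -0.413 to -0.171 for *Elovl6* and from -0.59 to -0.316 for *Sc5d*. For *Hsd17b7* it went from -0.462 to -0.324 and for *Srebf2* from -0.355 to -0.321. The comparison of P14 with P9 called 0 genes of the list in all 11 of its alternatives. Sex could not be a covariate at P9 and P21, where every mouse was male. No paired analysis was possible because no source used here says which mice shared a litter. Shares of promoters with a motif lay within their binomial intervals when the part before the start site alone was read (CCAAT 76% of 25, against 37.5% of all genes).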
